A study of Homo sapiens with 15 samples.

Results

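Death receptors and the proteins that pass on, block or amplify their signal were followed through 9 genes chosen by symbol: the death ligand TNFSF10, the receptors TNFRSF10A, TNFRSF10B and FAS, the initiator caspase CASP8 and its inhibitor CFLAR, the BH3-only protein BID, and the survival proteins BCL2L1 and MCL1. All 9 had a row in the expression table, which held 25503 genes. RNA sequencing was done on 15 libraries from 2 established human pancreatic ductal adenocarcinoma lines, Capan-1 and AsPC-1, with 3 libraries in each of 5 groups. Capan-1 cells received siRNA against B3GNT3 (siB3GNT3) or a control siRNA (siNC), and AsPC-1 cells received siRNA against B4GALT5 (siB4GALT5), siRNA against B3GNT3 or siNC. The cell line field of the Capan-1 samples reads Capable-1, while their titles give Capan-1. B4GALT5 and B3GNT3 are Golgi glycosyltransferases, which extend the sugar chains of glycolipids and glycoproteins. The series title gives the purpose as the effect of both enzymes on MHC class I and on CD8+ T cell responses. The number of siRNAs per target, the dose and the time after transfection are not given in the sources used here, nor is whether replicates came from separate cultures. The p-values therefore speak of the spread among these libraries, which may be technical.

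Coordinates are on GRCh38. CFLAR (chromosome 2, 201116104 to 201176687, plus strand) and CASP8 (chromosome 2, 201233443 to 201287711, plus strand) lie in a row with CASP10 between them (201182881 to 201229406). TNFRSF10B (23020133 to 23069179, minus strand) and TNFRSF10A (23190452 to 23225126, minus strand) flank both TRAIL decoy receptor genes on chromosome 8. TNFSF10 lies on chromosome 3 (172505508 to 172523507, minus strand), FAS on chromosome 10 (88990582 to 89015785, plus strand), BID on chromosome 22 (17734138 to 17774770, minus strand), BCL2L1 on chromosome 20 (31664452 to 31723989, minus strand) and MCL1 on chromosome 1 (150574551 to 150579738, minus strand). ACTA2 overlaps FAS on the opposite strand, RHOBTB2 overlaps TNFRSF10B and CFLAR-AS1 overlaps CFLAR, and the sources used here do not say whether reads were counted by strand. Values are FPKM, fragments scaled to transcript length and to the library's total, given per gene, so the long and short forms of c-FLIP and the survival and death forms of BCL-X were not separated.

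TRAIL, the product of TNFSF10, and FAS ligand are ligands with which T cells and natural killer cells can trigger death receptors on a target cell. TRAIL binds TNFRSF10A (DR4) and TNFRSF10B (DR5), and FAS ligand binds FAS. The clustered receptors recruit the adaptor FADD and caspase-8, and c-FLIP, the product of CFLAR, competes with caspase-8 in that complex. In cells that need amplification, caspase-8 cleaves BID, whose fragment drives BAX and BAK to open the mitochondrial outer membrane, while BCL-XL (BCL2L1) and MCL1 hold that step back. Pancreatic carcinoma lines are known for a variable and often weak response to TRAIL.

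RefSeq promoter sequences (GRCh38.p14, 250 bases before to 50 after a transcription start) were found for 6 of the 9 genes, with 18 starts in all. MCL1, TNFRSF10A and TNFRSF10B had none and were not searched. They were searched on both strands for 4 motifs: the core of the interferon-stimulated response element (GAAA, any 2 bases, GAAA), the gamma-activated site, TTCNNNGAA, the core of the C/EBP-ATF response element, TGATGNAA, and the NF-kB site. All windows with a match are shown, whatever the response of the gene, and capitals mark the matched bases. The part of these motifs in the results was not tested.
TNFSF10, interferon element, chr3:172523598-172523627, minus strand, starting at position -187 from the start: gaggagcttcTTTCAGTTTCcctcctttcc
CASP8, interferon element, chr2:201233450-201233479, plus strand, position -3: gagtttttggTTTCTGTTTCaccttgtgtc
CASP8, gamma-activated site, chr2:201233253-201233282, plus strand, position -200: aaaattatttTTCCAAGAAgaaaataaacc
CFLAR, NF-kB site, chr2:201118609-201118638, plus strand, position -97: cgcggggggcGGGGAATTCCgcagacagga
FAS, NF-kB site, chr10:88991264-88991293, plus strand, position -157: ggtcgctggaGGGGGACCCCggttggagag
In both interferon elements the match is on the strand opposite to the one printed, and the FAS match is found on either strand at the same place. Of 35116 promoters of the same length, 3.57% held the interferon element, 7.66% the gamma-activated site, 3.62% the C/EBP-ATF core and 11.3% the NF-kB site. Of the 18 promoters of these genes, 2 held the interferon element, 1 the gamma-activated site, 0 the C/EBP-ATF core and 2 the NF-kB site.

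The targeted genes were checked first. B3GNT3 had 1.32, 1.67 and 1.84 FPKM in Capan-1 siB3GNT3 libraries, against 13.3, 13.2 and 13.7 FPKM in Capan-1 siNC libraries. B4GALT5 had 8.70, 8.49 and 8.03 FPKM in AsPC-1 siB4GALT5 libraries, against 38.7, 35.8 and 35.5 FPKM in AsPC-1 siNC libraries. B3GNT3 had 2.53 and 2.50 FPKM in replicates 1 and 2 of AsPC-1 siB3GNT3, but 24.2 FPKM in the library labelled replicate 3, against 22.5, 23.8 and 23.3 FPKM in AsPC-1 siNC. That library was set apart for this reason, and its own values are given beside the others for the 9 genes and their ratios. Means and ranges of the overlapping genes and of other pathway genes leave it out. Set alone against AsPC-1 siNC, it gave 0 limma calls among 10804 genes, with 169 below 0.05 before adjustment, and the log2 differences of the 9 genes lay between -0.22 and 0.09. Libraries held 10339 to 11531 genes at 1 FPKM or more. Sequencing depth is unknown, because FPKM carries no counts. Of 6 ductal epithelial markers, all reached 1 FPKM in Capan-1, and CDH1 did not in AsPC-1, where its highest value was 0.561 FPKM. Among the leukocyte markers CD68 alone reached 1 FPKM, and among the endothelial markers 1 did so in Capan-1 and 0 in AsPC-1. The fibroblast markers LUM (69.6 to 91.8 FPKM in AsPC-1) and COL1A1 (73.1 to 77.6 in Capan-1 siB3GNT3, 46.3 to 53.2 in Capan-1 siNC) were well above it. The rest of the fibroblast list was low, without the library set apart. COL1A2 was at most 0.195 FPKM and DCN at most 0.0287 FPKM in any group. PDGFRB was at most 1.99 FPKM in Capan-1 and 0.261 FPKM in AsPC-1, where COL1A1 was at most 0.463 FPKM.

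Knockdown of B3GNT3 in Capan-1 changed 4 of the 9 genes: TNFSF10, TNFRSF10B and FAS rose and BCL2L1 fell. Among all 11493 genes tested there, 32.9% were called, 18.7% upward and 14.2% downward, where a call is a limma adjusted p under 0.05 over all genes tested. In bulk RNA, fewer cells of a type and less RNA per cell cannot be told apart. In AsPC-1, knockdown of B4GALT5 changed 3 of the 9: TNFRSF10B and MCL1 rose and BID fell, against a background of 58.2% (35.2% upward, 23.0% downward) of 10775 genes. Knockdown of B3GNT3 in AsPC-1 changed 5 of the 9, all upward: TNFSF10, TNFRSF10B, CFLAR, BCL2L1 and MCL1, against a background of 52.9% (32.5% upward, 20.4% downward). TNFRSF10B was thus called upward in each of the 3 knockdowns. Against these backgrounds, the counts of calls among the 9 do not set them apart from other genes. The knockdown and siNC libraries did not overlap for 5 of the 9 genes in Capan-1 (50.1% of all genes tested), for 3 with siB4GALT5 (64.0%) and for 8, all but FAS, with siB3GNT3 in AsPC-1 (75.8%). Both AsPC-1 comparisons used the same 3 siNC libraries. The median log2 fold change of the 9 genes and of all genes tested was 0.19 and 0.02 in Capan-1, 0.06 and 0.06 after B4GALT5 knockdown, and 0.33 and 0.07 after B3GNT3 knockdown in AsPC-1. All 9 passed the filter of 1 FPKM in 3 libraries in each fit. TNFSF10 did so in AsPC-1 through knockdown libraries alone, where a rise was favoured by the filter, so its AsPC-1 call is no support for the count of 5.

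The AsPC-1 backgrounds depended on scaling. After B4GALT5 knockdown, 3794 genes rose and 2477 fell as deposited, against 3060 and 3198 with median-ratio scaling and 4562 and 1879 when libraries were rescaled to a common sum. After B3GNT3 knockdown in AsPC-1, 3504 rose and 2193 fell as deposited, 2786 and 2865 with median-ratio scaling, and 4339 and 1668 with a common sum. No called gene of the 9 changed direction with either scaling in the 3 knockdown comparisons. With the library set apart returned to its group, limma called 0 of 10804 genes and 0 of the 9 for B3GNT3 knockdown in AsPC-1, with 3011 genes and 3 of the 9 below 0.05 before adjustment. Every call given below for that comparison therefore rests on replicates 1 and 2.

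**Figure D1:**
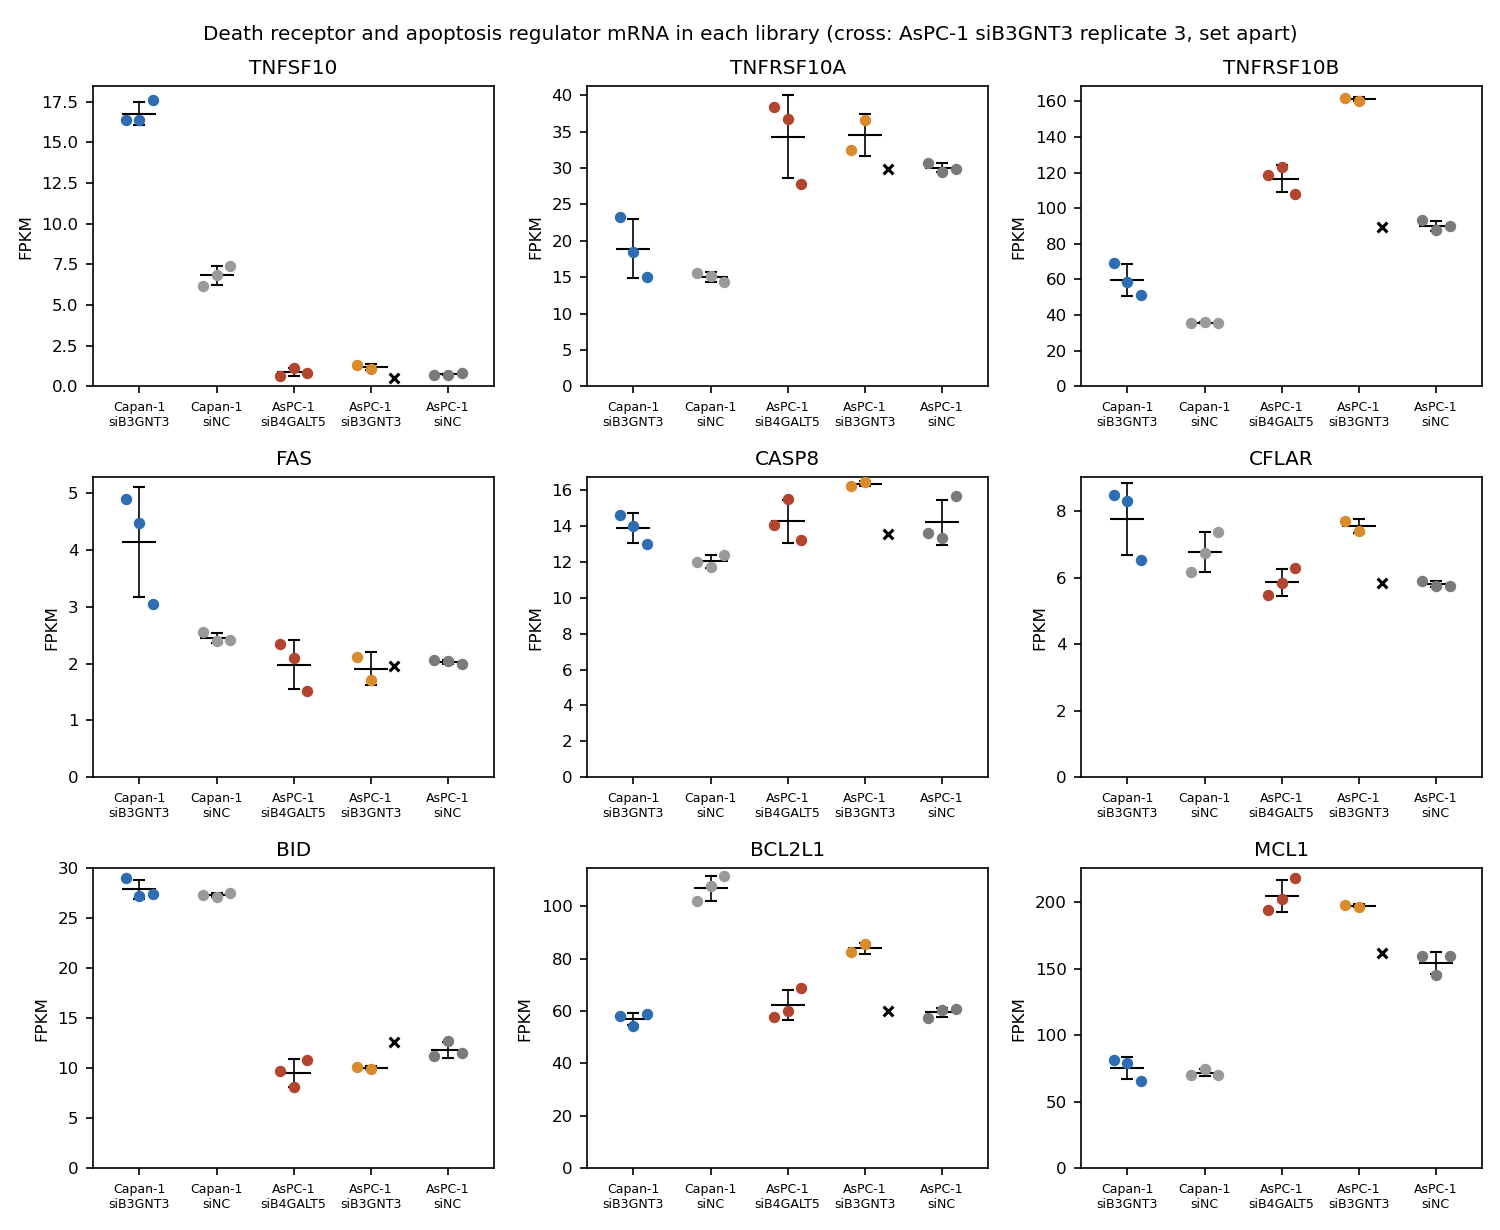
FPKM of the 9 genes in every library, 1 panel per gene, by group, with bars at the group mean ± SD and the AsPC-1 siB3GNT3 library set apart drawn as a cross outside the mean. TNFSF10 stands between 16.4 and 17.6 FPKM in Capan-1 siB3GNT3 and at 1.31 FPKM or lower in all AsPC-1 libraries, and BCL2L1 is lower in Capan-1 siB3GNT3 than in Capan-1 siNC.

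TNFSF10, the TRAIL ligand, showed the largest rise of the 9 genes in Capan-1. It had 16.4, 16.4 and 17.6 FPKM in Capan-1 siB3GNT3 libraries, against 6.20, 6.88 and 7.39 FPKM in Capan-1 siNC libraries. The groups did not overlap, and the log2 fold change was 1.19 (SE 0.08, adjusted p = 9.83e-05). In AsPC-1 the ligand was close to the floor of the table. It had 0.610, 1.10 and 0.839 FPKM with siB4GALT5, 1.31 and 1.06 FPKM with siB3GNT3 and 0.485 FPKM in the library set apart, against 0.696, 0.712 and 0.794 FPKM with siNC. The siB4GALT5 libraries straddled the siNC libraries (log2 fold change 0.09, SE 0.11, adjusted p = 0.516), and both siB3GNT3 libraries lay above them (0.33, SE 0.12, adjusted p = 0.0419). It reached 1 FPKM in knockdown libraries alone, which is how it came to be tested there. That last call was lost without any 1 of the 3 siNC libraries (adjusted p 0.0658 to 0.0999), with a pseudocount of 0.1 (log2 fold change 0.62), with no filter, with median-ratio scaling, and at 0.15 with all libraries, the adjusted p ranging from 0.0234 to 0.543 over its 12 alternatives.

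TNFRSF10B, the TRAIL receptor DR5, rose in all 3 knockdowns. In Capan-1 it had 69.0, 58.4 and 51.1 FPKM with siB3GNT3, against 35.8, 35.8 and 35.4 FPKM with siNC. In AsPC-1 it had 119, 123 and 108 FPKM with siB4GALT5, 162 and 160 FPKM with siB3GNT3 and 89.6 FPKM in the library set apart, against 93.1, 87.5 and 90.0 FPKM with siNC. Every knockdown library other than the one set apart exceeded every siNC library of its line. RHOBTB2, which overlaps it, had 1.01 to 1.21 FPKM in Capan-1 siB3GNT3 and 1.11 to 1.29 FPKM in Capan-1 siNC, and in AsPC-1 2.42 to 2.52 FPKM with siB4GALT5, 1.94 to 2.17 FPKM with siB3GNT3 and 3.09 to 3.24 FPKM with siNC, and its part in the TNFRSF10B value was not tested. The log2 fold change was 0.71 in Capan-1 (SE 0.10, adjusted p = 0.00194), 0.36 with siB4GALT5 (SE 0.06, adjusted p = 0.000425) and 0.83 with siB3GNT3 in AsPC-1 (SE 0.06, adjusted p = 8.25e-06). The call with siB4GALT5 was lost when the library set apart was included in the shared estimate of spread (adjusted p = 0.164, range 1.2e-05 to 0.164 over 17 alternatives), and with that library the siB3GNT3 value in AsPC-1 was 0.55 (adjusted p = 0.168, range 1.16e-07 to 0.168).

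TNFRSF10A, the TRAIL receptor DR4, was not called in any knockdown. It had 23.2, 18.5 and 15.1 FPKM in Capan-1 siB3GNT3, against 15.6, 15.2 and 14.3 FPKM in Capan-1 siNC. Replicates 1 and 2 lay above the siNC libraries and replicate 3 lay among them, giving a log2 fold change of 0.29 with a 95% interval of -0.02 to 0.60 (adjusted p = 0.129). In AsPC-1 it had 38.4, 36.7 and 27.8 FPKM with siB4GALT5, 32.5 and 36.5 FPKM with siB3GNT3 and 29.8 FPKM in the library set apart, against 30.7, 29.4 and 29.9 FPKM with siNC. The values were 0.17 (interval -0.07 to 0.41, adjusted p = 0.188) with siB4GALT5 and 0.19 (interval -0.07 to 0.46, adjusted p = 0.198, called in 2 of 17 alternatives) with siB3GNT3. Single libraries decided these outcomes: without Capan-1 siB3GNT3 replicate 3 the value was 0.44 (adjusted p = 0.00325, range 0.00325 to 0.321), and without AsPC-1 siB4GALT5 replicate 3 it was 0.31 (adjusted p = 0.000664, range 0.000664 to 0.514).

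The balance of both TRAIL receptors was read as a ratio within each library, which no scaling alters. TNFRSF10B stood at 2.97, 3.16 and 3.40 times TNFRSF10A in Capan-1 siB3GNT3, against 2.29, 2.36 and 2.48 times in Capan-1 siNC. In AsPC-1 the ratio was 3.09, 3.35 and 3.88 with siB4GALT5, 4.98 and 4.39 with siB3GNT3 and 3.00 in the library set apart, against 3.04, 2.97 and 3.01 with siNC. In each knockdown the ratio exceeded that of all siNC libraries of the line. On the log2 scale it was higher by 0.42 in Capan-1 (two-sided exact permutation p = 0.1), by 0.19 with siB4GALT5 (exact p = 0.1) and by 0.64 with siB3GNT3 in AsPC-1 (exact p = 0.2). These are the smallest p that 3 against 3 and 2 against 3 libraries allow, and after adjustment over the 9 ratio tests they were 0.225, 0.225 and 0.3.

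The decoy receptors TNFRSF10D and TNFRSF10C, which bind TRAIL without passing on a death signal, were not called. TNFRSF10D averaged 8.41 ± 2.52 FPKM in Capan-1 siB3GNT3 and 11.6 ± 0.791 FPKM in Capan-1 siNC (SD, n = 3 each) (log2 difference -0.45, SE 0.16, adjusted p = 0.0688). In AsPC-1 its values were -0.07 with siB4GALT5 and -0.10 with siB3GNT3 (adjusted p = 0.435 and 0.342). TNFRSF10C averaged 3.95 ± 0.358 FPKM in Capan-1 siB3GNT3 and 3.11 ± 0.432 FPKM in Capan-1 siNC (adjusted p = 0.0713). It was too low to be tested in AsPC-1. TNFRSF11B (osteoprotegerin), a soluble receptor that also binds TRAIL, was higher in each knockdown, without overlap of libraries. It averaged 13.9 ± 2.17 FPKM in Capan-1 siB3GNT3 and 9.82 ± 1.22 FPKM in Capan-1 siNC, and was called there. That call was lost with no filter and without siNC replicate 2 or 3 (adjusted p 0.0727 to 0.0851). In AsPC-1 it averaged 24.4 ± 3.99 with siB4GALT5, 18.9 ± 1.32 with siB3GNT3 (n = 2) and 8.29 ± 1.32 FPKM with siNC.

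FAS, the receptor of FAS ligand, was among the 2 lowest of the 9 genes in AsPC-1 and the lowest in Capan-1. It had 4.89, 4.46 and 3.04 FPKM in Capan-1 siB3GNT3, against 2.55, 2.40 and 2.41 FPKM in Capan-1 siNC. All knockdown libraries lay above all siNC libraries, and FAS rose (log2 fold change 0.55, SE 0.14, limma adjusted p = 0.0166). The call was lost without any 1 siNC library or without siB3GNT3 replicate 2 and with no filter (adjusted p 9.12e-05 to 0.0733 over 12 alternatives). ACTA2, which overlaps FAS on the other strand, had 1.70 to 2.08 FPKM in Capan-1 siB3GNT3 and 1.12 to 1.34 FPKM in Capan-1 siNC, and its part in the FAS value was not tested. In AsPC-1, FAS had 2.34, 2.09 and 1.51 FPKM with siB4GALT5, 2.12 and 1.71 FPKM with siB3GNT3 and 1.96 FPKM in the library set apart, against 2.05, 2.05 and 1.99 FPKM with siNC. The groups overlapped, with log2 fold changes of -0.03 (interval -0.28 to 0.21) with siB4GALT5 and -0.06 (interval -0.34 to 0.22) with siB3GNT3.

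CASP8, the initiator caspase of the receptor complex, was not called in any knockdown. It had 14.6, 13.997 and 13.0 FPKM in Capan-1 siB3GNT3, against 12.0, 11.7 and 12.4 FPKM in Capan-1 siNC. The libraries did not overlap, and the log2 fold change was 0.19 (SE 0.07, adjusted p = 0.073). In AsPC-1 it had 14.03, 15.5 and 13.2 FPKM with siB4GALT5, 16.2 and 16.4 FPKM with siB3GNT3 and 13.5 FPKM in the library set apart, against 13.6, 13.3 and 15.7 FPKM with siNC. The log2 fold change was 0.01 (interval -0.17 to 0.18) with siB4GALT5 and 0.19 (SE 0.09, adjusted p = 0.0865) with siB3GNT3. The siB3GNT3 value was called in 4 of its 17 alternatives, with a common sum (0.28), with only the groups compared, and without siNC replicate 3 (0.26) or siB4GALT5 replicate 3, the adjusted p ranging from 0.0167 to 0.470.

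CFLAR, which encodes the caspase-8 inhibitor c-FLIP, rose with siB3GNT3 in AsPC-1. It had 5.48, 5.83 and 6.29 FPKM with siB4GALT5, 7.69 and 7.38 FPKM with siB3GNT3 and 5.82 FPKM in the library set apart, against 5.91, 5.76 and 5.73 FPKM with siNC. Both siB3GNT3 libraries lay above all others of the line. The limma estimate was 0.33 on the log2 scale (SE 0.07, adjusted p = 0.00394), which was 0.22 with all libraries (adjusted p = 0.189, range 0.000991 to 0.189 over 17 alternatives). With siB4GALT5 the value was 0.01 (interval -0.13 to 0.16). CFLAR-AS1 had 0.486 to 1.90 FPKM with siB4GALT5, 0.876 to 1.26 FPKM with siB3GNT3 and 0.171 to 0.443 FPKM with siNC in AsPC-1, and its part in the CFLAR value was not tested. In Capan-1, CFLAR had 8.49, 8.29 and 6.52 FPKM with siB3GNT3, against 6.18, 6.73 and 7.38 FPKM with siNC. Those groups overlapped (log2 fold change 0.17, SE 0.11, adjusted p = 0.253).

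The ratio of CFLAR to CASP8 was not shown to differ in any knockdown. It was 0.580, 0.592 and 0.503 in Capan-1 siB3GNT3, against 0.515, 0.576 and 0.596 in Capan-1 siNC. In AsPC-1 it was 0.391, 0.376 and 0.477 with siB4GALT5, 0.473 and 0.449 with siB3GNT3 and 0.430 in the library set apart, against 0.435, 0.432 and 0.366 with siNC. The log2 ratio differed by -0.01 in Capan-1 (two-sided exact permutation p = 0.9), by 0.01 with siB4GALT5 (exact p = 1) and by 0.17 with siB3GNT3 in AsPC-1 (exact p = 0.2, the smallest that 2 against 3 libraries allow). Adjusted over the 9 ratio tests, these were 1, 1 and 0.3.

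BID, which carries the signal from caspase-8 to mitochondria, fell with siB4GALT5. It had 9.72, 8.10 and 10.9 FPKM with siB4GALT5, 10.2 and 9.96 FPKM with siB3GNT3 and 12.6 FPKM in the library set apart, against 11.2, 12.7 and 11.5 FPKM with siNC in AsPC-1. The siB4GALT5 libraries lay below the siNC libraries (log2 difference -0.29, SE 0.09, adjusted p = 0.0267), and the siB3GNT3 value was -0.21 (SE 0.11, adjusted p = 0.122, called in 4 of 17 alternatives). The siB4GALT5 call was lost when siNC replicate 2 (-0.24), siNC replicate 3 (-0.30) or siB4GALT5 replicate 2 (-0.18) was left out, with no filter, with all libraries, and at -0.20 with a common sum, the adjusted p ranging from 0.00198 to 0.104 over 17 alternatives. In Capan-1, BID had 28.97, 27.2 and 27.4 FPKM with siB3GNT3, against 27.3, 27.1 and 27.5 FPKM with siNC. The difference there was 0.03 with an interval of -0.11 to 0.17.

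BCL2L1, the gene of BCL-XL, moved in opposite directions in the lines after B3GNT3 knockdown. In Capan-1 it had 58.0, 54.4 and 58.9 FPKM with siB3GNT3, against 102, 108 and 111 FPKM with siNC. In AsPC-1 it had 57.9, 59.9 and 68.7 FPKM with siB4GALT5, 82.5 and 85.4 FPKM with siB3GNT3 and 60.0 FPKM in the library set apart, against 57.4, 60.5 and 60.6 FPKM with siNC. All Capan-1 siB3GNT3 libraries lay below their siNC libraries and both AsPC-1 siB3GNT3 libraries lay above theirs. In Capan-1 BCL2L1 fell, at -0.89 on the log2 scale (SE 0.06, adjusted p = 0.000122), and in AsPC-1 siB3GNT3 it rose, at 0.49 (SE 0.07, adjusted p = 0.000482), which was 0.33 with all libraries (adjusted p = 0.168, range 6.62e-06 to 0.168). With siB4GALT5 it was 0.06 (interval -0.09 to 0.21, adjusted p = 0.46).

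MCL1, a short-lived BCL2-family survival protein, rose in both AsPC-1 knockdowns. It had 194, 203 and 218 FPKM with siB4GALT5, 198 and 196 FPKM with siB3GNT3 and 162 FPKM in the library set apart, against 159, 145 and 160 FPKM with siNC. The log2 fold changes were 0.40 with siB4GALT5 (SE 0.06, adjusted p = 0.000266) and 0.35 with siB3GNT3 (SE 0.06, adjusted p = 0.00141), and with all libraries the siB3GNT3 value was 0.26 (adjusted p = 0.168, range 0.000127 to 0.168). In Capan-1, MCL1 had 81.3, 79.4 and 65.6 FPKM with siB3GNT3, against 70.4, 75.0 and 70.2 FPKM with siNC. Replicates 1 and 2 lay above the siNC libraries and replicate 3 below them (log2 fold change 0.06, interval -0.14 to 0.27).

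**Figure D2:**
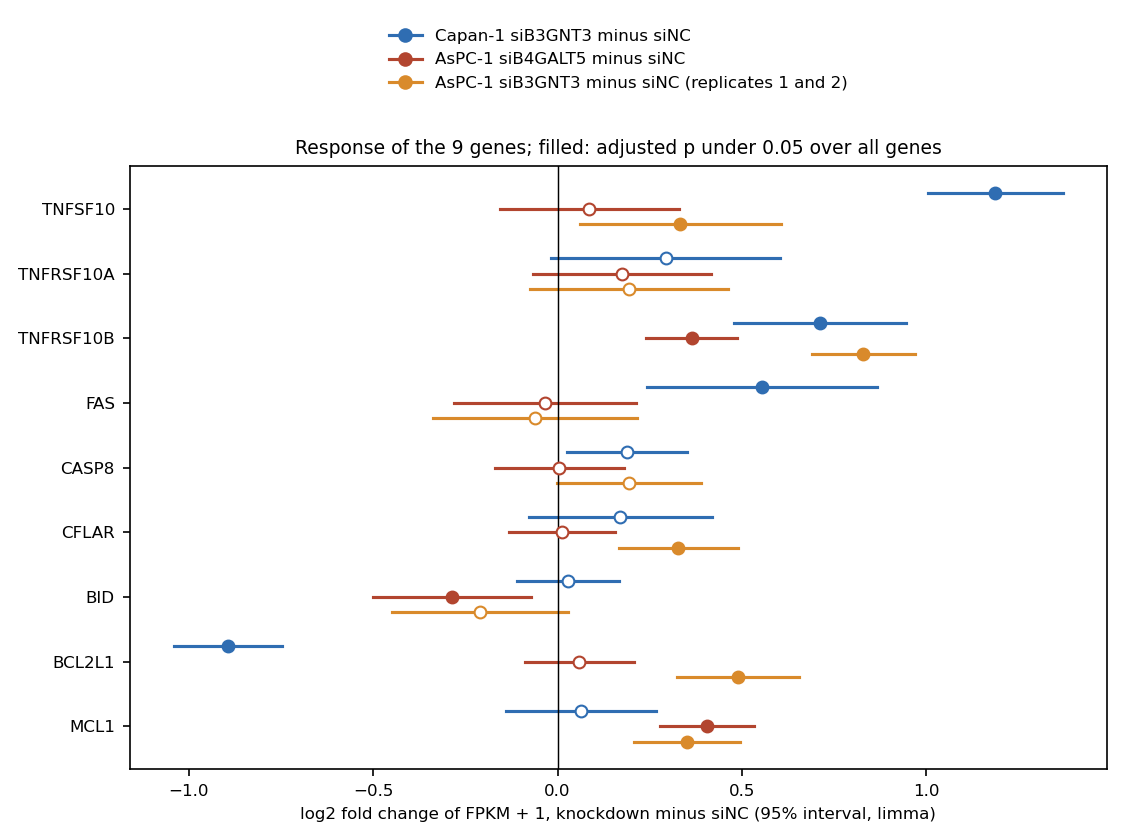
Log2 fold change of FPKM + 1, knockdown minus siNC, of the 9 genes in the 3 knockdown comparisons, with 95% limma intervals, filled where the adjusted p over all genes was under 0.05. TNFRSF10B is filled and right of 0 in all 3, and BCL2L1 is at -0.89 in Capan-1 and 0.49 in AsPC-1 siB3GNT3.

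The ratio of MCL1 to BCL2L1, both measured per transcript length, was compared in the same way. It was 1.402, 1.46 and 1.11 in Capan-1 siB3GNT3, against 0.692, 0.697 and 0.631 in Capan-1 siNC, so that MCL1 was the higher of the pair in all knockdown libraries and BCL2L1 in all siNC libraries. In AsPC-1 it was 3.36, 3.38 and 3.18 with siB4GALT5, 2.40 and 2.30 with siB3GNT3 and 2.70 in the library set apart, against 2.78, 2.40 and 2.63 with siNC. On the log2 scale the knockdown minus siNC difference was 0.97 in Capan-1 (two-sided exact permutation p = 0.1), 0.35 with siB4GALT5 (exact p = 0.1) and -0.14 with siB3GNT3 in AsPC-1 (exact p = 0.4). Adjusted over the 9 ratio tests, the values were 0.225, 0.225 and 0.514.

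**Figure D3:**
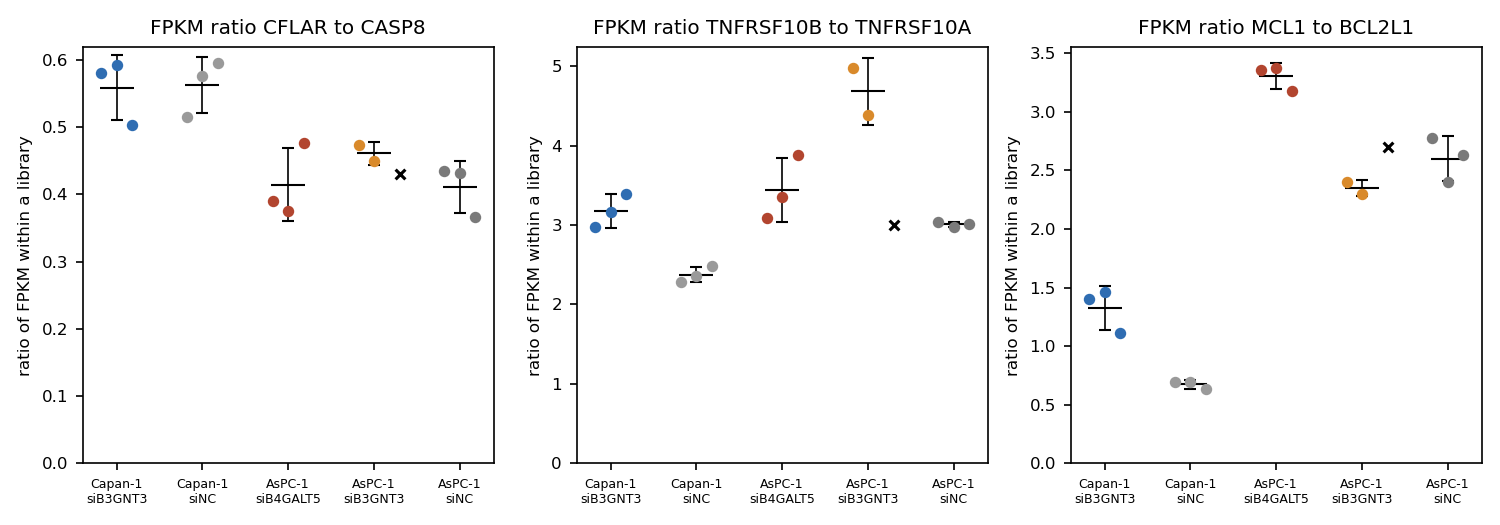
Ratios within each library of CFLAR to CASP8, TNFRSF10B to TNFRSF10A and MCL1 to BCL2L1, by group, with bars at the group mean ± SD and the library set apart drawn as a cross. The MCL1 to BCL2L1 ratio is 1.11 to 1.46 in Capan-1 siB3GNT3 and 0.631 to 0.697 in Capan-1 siNC.

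Replicate 3 of Capan-1 siB3GNT3 had the lowest value of its group for 6 of the 9 genes: TNFRSF10A, TNFRSF10B, FAS, CASP8, CFLAR and MCL1. Without it, 8 of the 9 genes were called in Capan-1, with TNFRSF10A, CASP8 (0.23, adjusted p = 0.0109, range 0.0109 to 0.216), CFLAR (0.28, adjusted p = 0.0164, range 0.0164 to 0.537) and MCL1 (0.16, adjusted p = 0.0342, range 0.0342 to 0.963) added upward, and the calls among all genes were 5715, or 50.4% of those tested, against 3786 with it. Leaving out siNC replicate 1, 2 or 3 of Capan-1 gave 2069, 2083 and 2112 calls. Replicate 3 of AsPC-1 siB4GALT5 was lowest of its group for TNFRSF10A, TNFRSF10B, FAS and CASP8 and highest for CFLAR, BID, BCL2L1 and MCL1. Without that library 8 of the 9 genes were called for B3GNT3 knockdown in AsPC-1, with TNFRSF10A, CASP8 and BID added, against 62.6% of all genes tested. Leaving it out changes the estimate of spread and the genes tested, which were 10702, against 10775 with it. In Capan-1 the summed ductal epithelial markers were 3039 to 3906 FPKM with siB3GNT3 and 4764 to 4987 FPKM with siNC. KRT8, KRT18, KRT19 and EPCAM were lower with siB3GNT3, CDH1 was higher (21.99 to 25.5 FPKM with siB3GNT3 and 17.4 to 18.7 FPKM with siNC) and MUC1 overlapped between the groups. The summed fibroblast markers were 80.0 to 85.7 FPKM with siB3GNT3 and 57.4 to 63.2 FPKM with siNC, with COL1A1 higher and LUM lower with siB3GNT3 (5.63 to 6.05 FPKM, against 9.13 to 10.1 FPKM with siNC). COL1A2 and DCN stayed under 1 FPKM in both Capan-1 groups, and PDGFRB overlapped between them. CD68 had 171 to 212 FPKM with siB3GNT3 and 157 to 172 FPKM with siNC there, and the T cell marker CD3E was at 0 in every Capan-1 siB3GNT3 library. The part of these markers in the results was not tested.

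In AsPC-1 the knockdowns were compared with each other. With siB4GALT5, 3 of the 9 genes were lower than with siB3GNT3 and none was higher: TNFRSF10B by -0.47 on the log2 scale (SE 0.06, adjusted p = 0.000482), BCL2L1 by -0.43 (SE 0.07, adjusted p = 0.00194) and CFLAR by -0.32 (SE 0.07, adjusted p = 0.00821). Among all genes tested 35.2% were called, 17.8% upward and 17.4% downward. The libraries of the knockdowns did not overlap for 4 of the 9 genes, against 56.5% of all genes. MCL1 differed by 0.05 with an interval of -0.09 to 0.20, and TNFSF10 by -0.25 (SE 0.12, adjusted p = 0.142). With the library set apart included, limma called 0 of the 9, with 0 below 0.05 before adjustment, and 1716 genes in all. Leaving out siB3GNT3 replicate 1 or 2 gave 2134 and 2190 called genes, against 3789. The CFLAR call was also lost without siB3GNT3 replicate 1 (adjusted p = 0.0685, range 0.00166 to 0.195).

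The response to B3GNT3 knockdown was compared between Capan-1 and AsPC-1 in 1 fit of 14 libraries, where 32.8% of 12236 genes differed, 13.8% upward in Capan-1 and 19.0% downward. The split between directions depended on scaling, with 1690 upward and 2319 downward as deposited, 2230 and 1849 with median-ratio scaling, and 1505 and 2670 with a common sum. Of the 9 genes, 3 differed. The response in Capan-1 minus that in AsPC-1 was 0.85 for TNFSF10 (SE 0.14, adjusted p = 0.000553), 0.61 for FAS (SE 0.19, adjusted p = 0.0257) and -1.38 for BCL2L1 (SE 0.10, adjusted p = 1.1e-06), the last from a fall in Capan-1 and a rise in AsPC-1. Across their alternatives the TNFSF10 and BCL2L1 calls were kept, with values of 0.67 to 1.04 and -1.43 to -1.22, and FAS was called in 14 of its 21. Its call was lost with no filter, with all libraries, and without AsPC-1 siB3GNT3 replicate 2 (0.51, adjusted p = 0.121, range 0.00128 to 0.121), Capan-1 siB3GNT3 replicate 1 or 2, or Capan-1 siNC replicate 2 or 3. MCL1 differed by -0.29 (SE 0.11, adjusted p = 0.0695). The TNFRSF10B response differed by -0.12 with an interval of -0.39 to 0.16, and that of CASP8 by -0.00 with an interval of -0.25 to 0.24.

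The lines differed in most of the 9 genes without knockdown. Comparing Capan-1 siNC with AsPC-1 siNC, 7 of the 9 were called, against 78.1% of all genes tested (43.6% upward, 34.5% downward). The libraries of the lines were separate for 9 of the 9, against 84.7% of all genes. TNFSF10 (log2 difference 2.17), BID (1.14) and BCL2L1 (0.83) were higher in Capan-1, and TNFRSF10B (-1.31), MCL1 (-1.09), TNFRSF10A (-0.95) and CASP8 (-0.22) were lower, with adjusted p from 4.78e-11 for TNFSF10 to 0.0156 for CASP8. FAS (0.19, adjusted p = 0.195) and CFLAR (0.19, adjusted p = 0.0679) were not called. With only the groups compared in the fit, both were, making 9 of 9 (adjusted p = 0.0114 for FAS, range 0.0114 to 0.325, and 0.0213 for CFLAR, range 0.00626 to 0.242). CFLAR was also called with a common sum (0.33), without Capan-1 siNC replicate 1 and without Capan-1 siB3GNT3 replicate 3. The median of all genes was 0.09 as deposited and 0.23 with a common sum, where CASP8 was at -0.07 and no longer called (adjusted p = 0.432, range 0.00817 to 0.432). CASP8 was also lost without AsPC-1 siNC replicate 3 or Capan-1 siNC replicate 2. The sources used here do not say whether the lines were grown and sequenced together, so a difference between lines and one between their preparations cannot be told apart.

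The order of the levels by mean FPKM was compared within each group. In Capan-1 siB3GNT3 it was MCL1 (75.5), TNFRSF10B (59.5), BCL2L1 (57.1), BID (27.9), TNFRSF10A (18.9), TNFSF10 (16.8), CASP8 (13.9), CFLAR (7.77) and FAS (4.13), where the libraries of MCL1 and TNFRSF10B, of TNFRSF10B and BCL2L1, and of TNFRSF10A and TNFSF10 overlapped. In Capan-1 siNC it was BCL2L1 (107), MCL1 (71.9), TNFRSF10B (35.7), BID (27.3), TNFRSF10A (15.0), CASP8 (12.0), TNFSF10 (6.82), CFLAR (6.76) and FAS (2.45), with an overlap between TNFSF10 and CFLAR alone. BCL2L1 thus ranked below MCL1 and TNFRSF10B in the knockdown and above both in siNC, and TNFSF10 ranked above CASP8 in the knockdown and below it in siNC. In AsPC-1 the order was MCL1, TNFRSF10B, BCL2L1, TNFRSF10A, CASP8, BID, CFLAR, FAS and TNFSF10 in all 3 groups, and the libraries of neighbours in it did not overlap. The AsPC-1 means ran from 205 FPKM for MCL1 to 0.850 FPKM for TNFSF10 with siB4GALT5, from 197 to 1.19 FPKM with siB3GNT3 and from 155 to 0.734 FPKM with siNC.

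Beyond the 9 genes, 65 others of the pathway were followed in 10 lists. In Capan-1, 14 rose and 6 fell of 52 tested, with a median log2 fold change of 0.07 beside 0.02 over all genes, where 18.7% of all genes tested rose and 14.2% fell. With siB4GALT5, 22 rose and 7 fell of 50 tested (median 0.23 beside 0.06), against 35.2% and 23.0% of all genes. With siB3GNT3 in AsPC-1, 21 rose and 6 fell of 50 (median 0.14 beside 0.07), against 32.5% and 20.4% of all genes. These shares are also the background of each list below, and no list was tested as a whole. The Capan-1 count of 20 calls was 13 without any 1 siNC library or without siB3GNT3 replicate 2, and the siB3GNT3 count in AsPC-1 was 0 with all libraries, where 23 were below 0.05 before adjustment.

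Adaptors and ubiquitin enzymes of the receptor complexes rose in part, and none fell with the deposited scaling: 5 of 12 in Capan-1 (18.7% of all genes rose), 8 of 12 with siB4GALT5 (35.2%) and 9 of 12 with siB3GNT3 in AsPC-1 (32.5%). RBCK1, a subunit of the linear ubiquitin ligase, averaged 29.6 ± 4.93 FPKM in Capan-1 siB3GNT3 and 16.5 ± 0.591 FPKM in Capan-1 siNC (log2 fold change 0.79). In AsPC-1 it averaged 75.0 ± 5.65 FPKM with siB4GALT5, 86.8 ± 2.05 FPKM with siB3GNT3 (n = 2) and 29.2 ± 1.25 FPKM with siNC, with log2 fold changes of 1.33 and 1.54. BIRC3, the ubiquitin ligase cIAP2, rose by 1.04 in Capan-1, 0.39 with siB4GALT5 and 1.01 with siB3GNT3 in AsPC-1. FADD, the adaptor that brings caspase-8 to the receptors, rose by 0.56 with siB4GALT5 and 0.29 with siB3GNT3 in AsPC-1 and was at -0.27 in Capan-1 without a call. CASP10, the relative of CASP8 next to it on chromosome 2, rose in Capan-1 (3.44 ± 0.150 FPKM with siB3GNT3 and 2.70 ± 0.112 FPKM with siNC, log2 fold change 0.26, adjusted p = 0.0287).

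Other death and TNF receptors were called in both directions, with 2 up and 2 down of 9 in Capan-1 and 4 up and 1 down of 8 in each AsPC-1 knockdown, beside the shares of all genes above. LTBR, the lymphotoxin beta receptor, rose in all 3 (0.34 in Capan-1, 0.62 with siB4GALT5, 0.84 with siB3GNT3 in AsPC-1). TNFRSF12A, the receptor of TWEAK, averaged 545 ± 25.5 FPKM with siB4GALT5, 518 ± 7.25 FPKM with siB3GNT3 (n = 2) and 305 ± 4.69 FPKM with siNC in AsPC-1. In Capan-1 it averaged 222 FPKM in both groups, and its B3GNT3 response differed between lines by -0.77 (adjusted p = 2.54e-05). TNFRSF1A, the main TNF receptor, fell in Capan-1 (37.0 ± 3.63 FPKM with siB3GNT3 and 64.4 ± 2.47 FPKM with siNC, log2 fold change -0.79). In AsPC-1 it had 71.2 to 74.8 FPKM with siB4GALT5 and 79.0 to 86.4 FPKM with siB3GNT3 (n = 2), below the 87.0 to 93.6 FPKM with siNC. Of the other death ligands, FASLG was at or near 0 in all groups, and 2 of 7 could be tested in each line.

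BH3-only proteins other than BID, which bind and neutralise survival proteins, were called upward in 3 of 6 tested genes in Capan-1, 3 of 4 with siB4GALT5 and 3 of 4 with siB3GNT3 in AsPC-1, and downward in 1, 1 and 0. PMAIP1 (NOXA), which binds MCL1, averaged 11.7 ± 2.04 FPKM in Capan-1 siB3GNT3 and 6.74 ± 0.387 FPKM in Capan-1 siNC (SD, n = 3 each). In AsPC-1 it averaged 28.2 ± 1.58 FPKM with siB4GALT5, 17.6 ± 1.15 FPKM with siB3GNT3 (n = 2) and 5.96 ± 0.486 FPKM with siNC. No knockdown library overlapped its siNC libraries, and the log2 fold changes were 0.70 in Capan-1 (adjusted p = 0.00412), 2.07 with siB4GALT5 (1.43e-07) and 1.42 with siB3GNT3 in AsPC-1 (2.21e-06). BBC3 (PUMA) averaged 2.34 ± 0.747 FPKM in Capan-1 siB3GNT3 and 0.494 ± 0.0592 FPKM in Capan-1 siNC. In AsPC-1 it averaged 2.11 ± 0.177 FPKM with siB4GALT5, 1.22 ± 0.217 FPKM with siB3GNT3 (n = 2) and 0.338 ± 0.122 FPKM with siNC. It passed the filter in each line through knockdown libraries alone, so that its calls were favoured by the filter, and its log2 fold changes depended on the pseudocount (1.14, 1.22 and 0.73 with 1, against 2.00, 2.37 and 1.62 with 0.1, in Capan-1, with siB4GALT5 and with siB3GNT3 in AsPC-1). With all libraries the siB3GNT3 call in AsPC-1 was lost (adjusted p = 0.168, range 0.0002 to 0.168). BMF rose by 1.14 in Capan-1, where it averaged 6.02 ± 0.317 FPKM with siB3GNT3 and 2.20 ± 0.309 FPKM with siNC, and was under 1 FPKM in AsPC-1. BCL2L11 (BIM) rose by 0.71 with siB4GALT5 and 0.47 with siB3GNT3 in AsPC-1. BAD fell by 0.26 on the log2 scale in Capan-1 and by 0.59 with siB4GALT5.

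CASP2, an initiator-type caspase, fell with siB3GNT3 in AsPC-1 (11.2 ± 0.113 FPKM with siB3GNT3, n = 2, and 19.5 ± 0.764 FPKM with siNC, log2 fold change -0.74), and its response differed between lines by 0.94 (adjusted p = 1.25e-05). BAK1, a pore-forming effector, rose by 0.34 in Capan-1 and 0.50 with siB4GALT5. BAX, another such effector, was called downward in Capan-1 (29.8 ± 3.98 FPKM with siB3GNT3 and 38.9 ± 1.78 FPKM with siNC, log2 fold change -0.38). The BAX call was lost with no filter, without any 1 siNC library and without siB3GNT3 replicate 1 or 2. MLKL, the effector of necroptosis, fell by 0.60 on the log2 scale in Capan-1 and by 0.26 with siB3GNT3 in AsPC-1 and rose by 0.30 with siB4GALT5. Caspase-binding inhibitors and their relatives were called in both directions in AsPC-1, with 1 up and 2 down of 4 with siB4GALT5 and 1 up and 1 down with siB3GNT3, and 0 of 3 tested in Capan-1 were called. XIAP rose by 0.38 with siB4GALT5 and 0.47 with siB3GNT3, and both calls were lost with all libraries (adjusted p = 0.0968, range 0.00103 to 0.0968, and adjusted p = 0.296, range 0.000743 to 0.296). BIRC5 (survivin) fell with siB4GALT5 (29.5 ± 6.99 FPKM with siB4GALT5 and 38.7 ± 1.10 FPKM with siNC, log2 fold change -0.40). BIRC7 fell in both, averaging 0.915 ± 0.513 FPKM with siB4GALT5, 0.564 ± 0.273 FPKM with siB3GNT3 (n = 2) and 1.69 ± 0.215 FPKM with siNC. Its siNC libraries (1.46 to 1.89 FPKM) were enough to pass the filter, and without them it would not have passed. A fall was thus favoured by the filter, and the BIRC7 calls are no support for the counts of falls in this list. The BIRC5 call was lost in 7 alternatives and the BIRC7 calls in 8 with siB4GALT5 and 3 with siB3GNT3. Of 7 genes of mitochondrial release and the apoptosome, 1 was called in each comparison: AIFM1 downward in Capan-1 and CYCS upward in both AsPC-1 knockdowns. The AIFM1 call was kept in 8 of its 13 alternatives and the MLKL call with siB3GNT3 in AsPC-1 in 13 of 17.

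**Figure D4:**
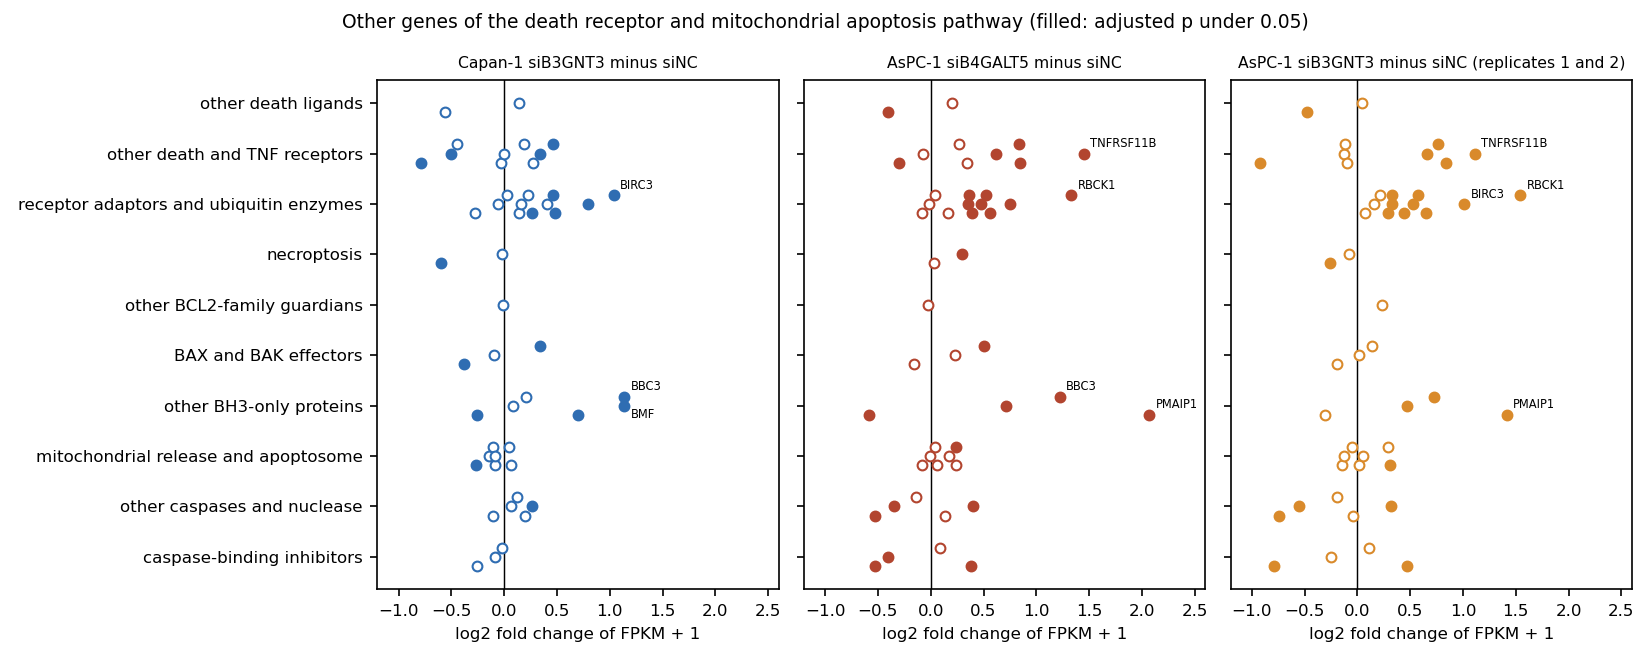
Log2 fold change of FPKM + 1, knockdown minus siNC, of tested genes of the 10 other pathway lists, 2 of them left out, 1 row per list and 1 panel per knockdown, filled where the adjusted p over all genes was under 0.05. PMAIP1 is the farthest right with siB4GALT5 at 2.07, and no adaptor or ubiquitin enzyme is filled left of 0.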

How the data were processed

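The only measurement was 1 table of FPKM, deposited by the authors, gene by library for 15 libraries. Per the submitters' processing notes the tools were Bowtie2, RSEM 1.3.1 and DESeq2 1.4.5 with GRCh38, and the role of each and the annotation are not given in the sources used here. The table had 0 columns of other samples. No counts were used, so depth is unknown and no count model was run. Differences were tested with limma 3.58.1 (R 4.3.3, intensity trend) on log2(FPKM + 1), which understates changes of low genes, over genes with at least 1 FPKM in 3 libraries of the fit, with Benjamini-Hochberg adjustment over all genes and calls under 0.05. The fits held 6 Capan-1, 8 AsPC-1 or all 14 libraries, without the AsPC-1 siB3GNT3 library whose target was not reduced. Ratios were compared by two-sided exact permutation tests. Scripts were tested on simulated data. Gene positions are from GENCODE 29. Python 3.11.15 was used for values, motifs and figures. The 9 genes and the lists were chosen with earlier results of these data known. Of the lists, the text names genes among the 3 smallest p of each list and knockdown past the threshold. TNFRSF10C, TNFRSF10D, CASP10, BAD and FASLG are outside this rule and were named after their values were seen. Of the listed genes, 2 count in the totals and are not reported here. Alternatives were another pseudocount, no and a stricter filter, 2 scalings, no trend, the replicate number as a block, all libraries, only the groups compared and each library left out. The same for pathway lists was added after the data were seen. The sources used here do not say whether replicates were paired across groups.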

Additional observations from a re-analysis of the deposited data

Results flagged for a closer look

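The response to B3GNT3 knockdown differed between Capan-1 and AsPC-1 for 3 of the 9 genes by the limma test of the difference itself, where 32.8% of all genes tested were called, so that the count is close to the background. For TNFSF10 the log2 fold change was 1.19 in Capan-1 and 0.33 in AsPC-1, a difference of 0.85 (adjusted p = 0.000553). With a pseudocount of 0.1 the AsPC-1 log2 fold change was 0.62 and not called (adjusted p = 0.051), TNFSF10 being close to the floor there. For FAS it was 0.55 in Capan-1 and -0.06 in AsPC-1, a difference of 0.61 (adjusted p = 0.0257), and it was called in 14 of its 21 alternatives. For BCL2L1 it was -0.89 in Capan-1 and 0.49 in AsPC-1, a difference of -1.38 (adjusted p = 1.1e-06), and it was called in 22 of its 22 alternatives.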

How the results depend on the processing

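With the AsPC-1 siB3GNT3 library set apart returned to its group, the members called were 1 with siB4GALT5, 0 with siB3GNT3 and 0 between the knockdowns. Genes called were then 0 with siB3GNT3 (3011 below 0.05 before adjustment), 1716 between the knockdowns and 1204 for the B3GNT3 response compared between lines. Pathway genes called with siB3GNT3 were 0, and the log2 ratio of TNFRSF10B to TNFRSF10A with siB3GNT3 in AsPC-1 was 0.42. With 1 library left out, members called ranged from 3 to 8 in Capan-1 and 4 to 8 with siB3GNT3 in AsPC-1, genes called from 2069 to 5715 in Capan-1 and 2134 to 4865 between the AsPC-1 knockdowns, pathway genes called from 13 to 29 in Capan-1, and that ratio from 0.54 to 0.73. Signs changed for 28 member values, none of them called. With median-ratio scaling CASP8, CFLAR and BCL2L1 with siB4GALT5 were -0.076, -0.062 and -0.026. The difference between lines in the B3GNT3 response of CASP8 was 0.082 with that scaling. With a common sum FAS with siB4GALT5 was 0.025. With all libraries TNFRSF10A between knockdowns was 0.047. The difference between lines in the B3GNT3 response was then 0.16 for TNFRSF10B and 0.080 for CASP8. With 1 library left out the ranges with siB4GALT5 were -0.054 to 0.073 (CASP8), -0.12 to 0.085 (FAS), -0.032 to 0.053 (CFLAR) and -0.013 to 0.11 (BCL2L1). With siB3GNT3 in AsPC-1 the range was -0.16 to 0.040 (FAS). Between knockdowns the ranges were -0.11 to 0.12 (TNFRSF10A), -0.074 to 0.15 (FAS) and -0.16 to 0.028 (BID). For the difference between lines in the B3GNT3 response they were -0.072 to 0.040 (CASP8) and -0.052 to 0.24 (TNFRSF10A). Over 10 pairs with the same replicate number in their titles, the correlation of deviations was -0.07 to 0.07. The library names carry other numbers in part, and the 2 AsPC-1 siB3GNT3 libraries mirror each other around their mean. Pairing by culture or batch was therefore not tested. With the number as a block, genes called were 3311 in Capan-1, 6285 with siB4GALT5 and 5470 with siB3GNT3 in AsPC-1, TNFSF10 lost its AsPC-1 siB3GNT3 call, and TNFRSF10A between knockdowns was 0.051. The cause of these changes was not tested. Depth, which sets the error of FAS and TNFSF10 near 1 to 2 FPKM, is unknown, and AsPC-1 siB3GNT3 rests on 2 libraries.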
